A study of Mus musculus with 10 samples.

Results

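The mRNAs described here are those of 9 genes that move calcium between the cytosol, the endoplasmic reticulum (ER) and the mitochondria of brown fat, chosen by gene symbol from the 15075 genes of the deposited table: the SERCA pumps Atp2a2 and Atp2a3, the inositol 1,4,5-trisphosphate (IP3) receptors Itpr1, Itpr2 and Itpr3, the store sensor Stim1, the uniporter pore Mcu and its regulator Micu2, and the inner membrane exchanger Letm1. All 9 were in the table and all 9 were among the 11244 genes tested. The skeletal muscle isoforms were not chosen.

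Calcium in a brown adipocyte is pumped into the ER by SERCA pumps, leaves it through IP3 receptors, and is replaced from outside the cell when the ER sensor STIM1 opens channels of the plasma membrane. Part of the released calcium enters mitochondria through the uniporter, a channel of the inner membrane that is gated by MICU proteins, and inside the matrix it raises the activity of several dehydrogenases. In brown fat this traffic is known as a second messenger of adrenergic signalling and, where pumping and leak run against each other, as a source of heat.

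RNA came from interscapular brown adipose tissue (iBAT) of 5 Control and 5 AdCKO mice of the C57BL/6 strain, aged 20 weeks and kept at room temperature, with 1 library per mouse. AdCKO mice carried Crls1 alleles with exon 4 flanked by loxP sites together with Adipoq-Cre, which is active in adipocytes, so that other cells of the tissue kept the gene. Control mice carried the floxed alleles without Cre and are named wild type in the labels. Crls1 encodes cardiolipin synthase, which makes the signature phospholipid of the inner mitochondrial membrane. Values are the authors' normalized reads per kilobase (kb) of counted exon, and no library holds a 0, by a step that the sources used here do not name. Low levels, such as those of Sln, Ryr1 or Atp2a1 in Control, are thus not measured floors, and fold changes of low genes come out too small. A gene was called when limma's moderated test on log2(value + 1) gave an adjusted p under 0.01. The question of the comparison is what the loss of cardiolipin synthesis in adipocytes changes in the mRNAs of the tissue.

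Crls1 fell from 1060.2 ± 191 (SD, n = 5) in Control to 217 ± 26.4 in AdCKO, and every AdCKO library lay below every Control library, as the labels give it. The summed normalized reads ran from 7615403 to 8171138 per Control library and from 5419800 to 5843024 per AdCKO library, and the sequencing depth before normalization is unknown. When every library was scaled to 1 common total, the tested genes had a median log2 difference of 0.46 in place of -0.01. Adipocyte markers, summed over 10 genes, were at 233740 to 264500 in Control libraries against 144230 to 167830 in AdCKO libraries, with 8 of 10 called lower and 1 higher. All 12 macrophage markers were called higher, and their sum was 746 to 2375 in Control against 8512 to 11640 in AdCKO. In bulk tissue, fewer cells of a type and less RNA per cell cannot be told apart. AdCKO replicates 1, 2 and 4 carried skeletal muscle mRNAs, with a sum of 17 muscle markers between 8216 and 32572 against 181 to 199 in the other 2 AdCKO libraries and 152 to 190 in Control. These 3 libraries are named below wherever a value moved with them, and the fit was repeated without them, which leaves 2 AdCKO mice. Lymphocyte marker sums were 55.4 to 84.0 in Control and 65.4 to 285 in AdCKO, the highest in replicate 1, and smooth muscle and pericyte sums were 1184 to 1334 and 1719 to 2269. Endothelial sums overlapped, at 1536 to 1942 in Control and 1661 to 2316 in AdCKO, while platelet sums did not, at 56.8 to 102 and 127 to 231. A fit with a skeletal muscle score as covariate was also run. The score, the mean log2(value + 1) of the 17 markers, was 7.64 to 9.61 in those 3 libraries and 2.78 to 2.99 in all others. Because it was high in AdCKO libraries alone, this fit nearly repeats the fit without them. It is no separate check and cannot part muscle mRNAs from genotype. The part of these cell types in the values below was not tested.

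Of the 9 genes, 2 were called higher in AdCKO (Atp2a3 and Itpr3), 4 lower (Itpr1, Itpr2, Stim1 and Letm1) and 3 neither (Atp2a2, Mcu and Micu2). Across all tested genes, 25.6% were called higher and 28% lower. The higher share of the 9 genes was thus near that background and the lower share above it, without a test of the difference. The 9 genes and the lists below were chosen with earlier results of these data known, so a share away from the background only describes them. The libraries of the 2 groups did not overlap for 6 of the 9 genes, against 50.9% of all tested genes. Scaled to a common total, where 60.6% of genes were called higher and 9.77% lower, these 6 genes kept their direction and their call, while Atp2a2, Mcu and Micu2 changed sign and Mcu was called higher. The log2 fold changes then were -0.62 for Itpr1, -0.72 for Itpr2, -0.32 for Stim1, -0.64 for Letm1, 0.87 for Itpr3 and 2.26 for Atp2a3, so the percentages of Control given below hold for the authors' normalization. Quantile normalization (22.4% higher, 31.1% lower) kept 5 of the 6 calls, losing Itpr3. Leaving out the 3 libraries with muscle mRNAs (18.8% higher, 19.7% lower) kept the same 5. Counts of called genes in the lists below are to be read against the shares of all genes under the same setting.

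**Figure D1:**
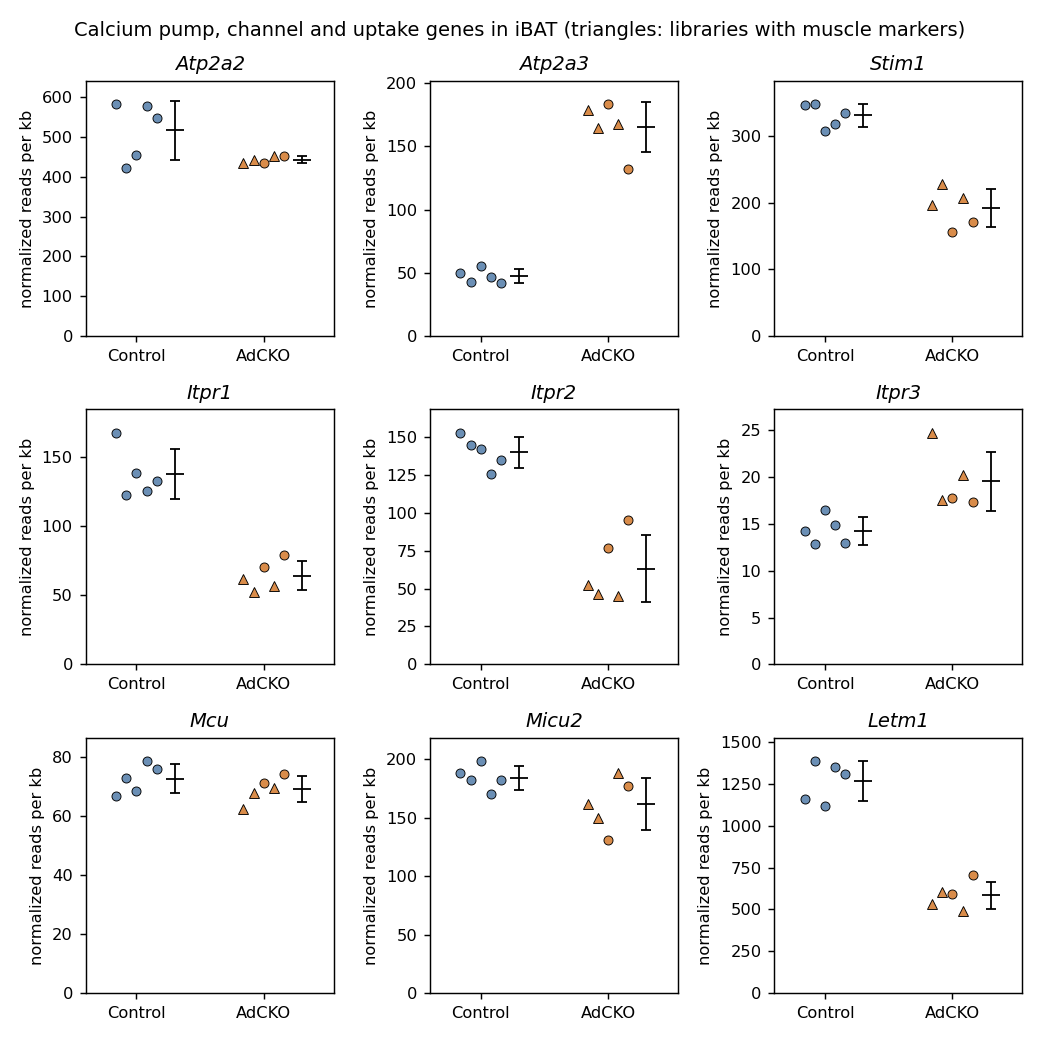
Normalized reads per kb (vertical axes, each from 0) of the 9 genes in the 5 Control (blue) and 5 AdCKO (orange) libraries, with mean and SD beside the points; triangles are the 3 AdCKO libraries with skeletal muscle mRNAs. The groups are separate for Atp2a3, Stim1, the 3 IP3 receptors and Letm1, and overlap for Atp2a2, Mcu and Micu2.

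Ordered by level per length, Control iBAT had most mRNA of Letm1, then Atp2a2, Stim1 and Micu2, then Itpr2 and Itpr1, whose libraries overlapped, and then Mcu, Atp2a3 and Itpr3. In AdCKO the order became Letm1, Atp2a2, then Stim1, Atp2a3 and Micu2 with overlapping neighbours, then Mcu, Itpr1 and Itpr2, again with overlapping neighbours, and last Itpr3. Atp2a3 thus moved from below Mcu to beside Stim1, and both large IP3 receptor mRNAs moved from above Mcu to its level.

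The pumps and the release channels stand at the head of the results, and the 250 bases upstream of the annotated starts of the main pair of each are shown because the pumps diverged and the receptors Itpr1 and Itpr2 moved together. The sequences were read from the mm9 genome, 5′ to 3′ on the strand of the gene, at chr5:122952235-122952484 (minus strand) for Atp2a2, chr11:72774421-72774670 (plus) for Atp2a3, chr6:108162840-108163089 (plus) for Itpr1 and chr6:146450746-146450995 (minus) for Itpr2. Capitals mark CCAAT, the box bound by NF-Y, and CCACG, the other part of the ER stress element, or their reverse complements.
Atp2a2: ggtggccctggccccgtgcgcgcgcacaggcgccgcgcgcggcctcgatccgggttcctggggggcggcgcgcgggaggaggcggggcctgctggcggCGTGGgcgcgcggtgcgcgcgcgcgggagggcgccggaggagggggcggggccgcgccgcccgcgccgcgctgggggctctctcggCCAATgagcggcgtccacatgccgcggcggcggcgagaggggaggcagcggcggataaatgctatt
Atp2a3: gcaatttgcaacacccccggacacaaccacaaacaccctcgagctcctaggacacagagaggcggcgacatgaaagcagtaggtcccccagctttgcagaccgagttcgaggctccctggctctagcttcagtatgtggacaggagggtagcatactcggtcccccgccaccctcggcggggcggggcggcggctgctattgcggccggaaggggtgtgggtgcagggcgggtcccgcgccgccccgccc
Itpr1: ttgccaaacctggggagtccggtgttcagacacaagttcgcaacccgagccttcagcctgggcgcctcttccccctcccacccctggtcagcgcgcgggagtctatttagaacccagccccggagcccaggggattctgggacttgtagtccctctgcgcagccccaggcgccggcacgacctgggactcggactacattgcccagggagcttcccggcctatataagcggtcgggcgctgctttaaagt
Itpr2: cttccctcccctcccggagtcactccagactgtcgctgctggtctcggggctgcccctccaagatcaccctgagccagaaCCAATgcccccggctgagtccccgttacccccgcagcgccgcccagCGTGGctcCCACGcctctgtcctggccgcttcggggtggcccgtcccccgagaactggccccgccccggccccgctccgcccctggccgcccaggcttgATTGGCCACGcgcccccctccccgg
Searched on both strands in the same window, CCAAT was present upstream of 35.3% and CCACG of 39.5% of all 15075 genes. Atp2a2 held both, with CCAAT 66 to 62 bases before the start, and Itpr2 held CCAAT at 2 positions and CCACG at 3, of which 1 of each adjoin on opposite strands. Atp2a3 and Itpr1 held neither. None of the 9 genes held the full ER stress element (CCAAT and CCACG with 9 bases between, upstream of 0.139% of genes), the C/EBP-ATF element TGATGCAAT (0.119%), the cAMP response element TGACGTCA (2.5%) or the ERR element TCAAGGTCA (0.265%) in this window. The short form TGACG, in 24.9% of all windows, was found upstream of Stim1. Letm1 held CCAAT at the same distance as Atp2a2, Mcu held CCAAT at 2 positions and CCACG at 1, and Micu2 and Itpr3 held CCACG. All 9 windows were rich in G and C, from 60.4% to 81.6%, where the median of all genes was 59.2%. A match describes letters and is not a binding site, and an absent match says nothing of a factor.

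Atp2a2 encodes SERCA2, the calcium pump of the ER in nearly all cells (NM_009722, chr5:122903522-122952234 in mm9, minus strand). Control libraries gave 583, 423, 454, 578 and 549 normalized reads per kb in order of replicate number, and AdCKO libraries 436, 444, 436, 453 and 452. All 5 AdCKO libraries lay inside the Control range, and their spread was narrow (517 ± 74.1 in Control, 444 ± 8.26 in AdCKO, SD, n = 5). The log2 fold change was -0.21 (95% interval -0.41 to -0.01; limma, adjusted p = 0.065), which was not called. The libraries with and without muscle mRNAs had the same AdCKO mean of 444. When libraries were scaled to 1 total it came to 0.27 instead (limma, adjusted p = 0.021), below the shift of all genes, so that the direction for Atp2a2 depends on the scaling.

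Atp2a3 encodes SERCA3, a pump with lower affinity for calcium that is best known from blood cells, endothelium and some epithelia (NM_016745, chr11:72774671-72806545, plus strand). Its Control values were 49.8, 42.3, 55.4, 46.7 and 41.9, and its AdCKO values 178, 164, 183, 168 and 132. Every AdCKO library was above every Control library by a wide gap. The mean rose from 47.2 ± 5.62 to 165 ± 19.9, which is 3.50-fold or 1.78 ± 0.10 (SE) on the log2 scale (limma, adjusted p = 4.8e-08). The gene stood at the 54.9 percentile of all levels in Control and at the 81.5 percentile in AdCKO. Macrophage markers rose in the same libraries (median log2 fold change 2.58), and their part in the rise of Atp2a3 was not tested. Without the 3 libraries with muscle mRNAs the log2 fold change was 1.71.

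Within a library, the ratio of Atp2a3 to Atp2a2 does not depend on a scaling factor. Its log2 value went from -3.45 ± 0.27 in Control to -1.43 ± 0.21 in AdCKO (exact permutation test, p = 0.0079, the smallest p that 5 against 5 allow, and 0.0099 after adjustment over 10 ratios). On the linear scale Atp2a3 mRNA went from 0.0916 to 0.370 of Atp2a2 mRNA. The 2 pumps together gave 565 ± 74.0 in Control and 609 ± 14.8 in AdCKO, with overlapping libraries. The fast-twitch muscle pump Atp2a1 was at 5.99 to 8.51 in Control, at 5.47 and 5.54 in AdCKO replicates 3 and 5, and at 765, 3057 and 978 in replicates 1, 2 and 4. Counted with Atp2a1, the share of Atp2a2 in all SERCA mRNA went from 90.4% to 43.7%, a fall of 46.8 percentage points (exact permutation test, p = 0.0079, adjusted 0.0238 over 6 shares) that was 17.2 points without the 3 libraries with muscle mRNAs. The share of Atp2a3 went from 8.38% to 15.9% with all libraries (exact permutation test, adjusted p = 0.159), and was 17.5 points higher than in Control without those 3 libraries, where no test of 5 against 2 can go below p = 0.048. The small SERCA regulators sarcolipin (Sln) and phospholamban (Pln) stayed under the filter on low values, and Sln reached 5.82, 19.7 and 13.1 only in the libraries with muscle mRNAs, against 5.12 to 5.53 elsewhere. Of the other SERCA regulators, Hax1, which binds the pump, was at 81.0 ± 7.21 and 90.8 ± 9.06 and was not called. Of the 7 tested genes of ER pumps and regulators, Atp2a3 alone was called with the authors' normalization. On the common total 5 were called higher and the median of the list was 0.53. There 60.6% of all tested genes were called higher, with a median of 0.46.

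Inside the ER, calcium is held by luminal binding proteins and chaperones. Of the 15 tested genes of that list 11 rose, none fell and 4 were not called, with a median log2 fold change of 0.85 against -0.01 over all tested genes. The shares over all tested genes were 25.6% higher and 28% lower. Hspa5, which encodes the ER chaperone BiP, rose from 917 ± 51.9 to 1756 ± 147. Hsp90b1, which encodes GRP94, rose from 536 ± 50.0 to 1018 ± 56.0 and both had a log2 fold change of 0.93 (limma, adjusted p = 5.5e-07 and 5.9e-07). Calreticulin (Calr) rose from 1183 ± 60.2 to 1717 ± 64.8. Nucb2 and Rcn3, which encode EF-hand proteins of the secretory route, rose by 1.61 and 1.79 on the log2 scale. The muscle calsequestrin Casq1 and Hrc were high only in the 3 libraries with muscle mRNAs, at 81.7 to 385 and 47.7 to 147. Without these libraries 11 of the 13 genes still tested were called higher, with a median of 0.69.

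Itpr1 encodes an IP3 receptor, the ligand-gated channel through which the ER releases calcium (NM_010585, chr6:108163090-108501110, plus strand). Control values were 168, 123, 139, 126 and 133, and AdCKO values 61.9, 52.8, 70.7, 57.0 and 79.1. No library of one group reached the range of the other. The mean fell from 138 ± 18.1 to 64.3 ± 10.6, which is 46.7% of Control, or a log2 change of -1.09 ± 0.12 (SE) with an adjusted p of 5.7e-06 in limma.

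Itpr2 encodes the receptor isoform with the highest affinity for IP3 (NM_019923, chr6:146056821-146450745, minus strand). It read 153, 144, 142, 125 and 134 in Control and 52.4, 46.1, 76.6, 45.4 and 95.1 in AdCKO. Every AdCKO value lay below the Control range, and the spread in AdCKO was wide. The mean fell from 139.7 ± 10.4 to 63.1 ± 21.9, which is 45.2% of Control, or a log2 change of -1.19 ± 0.18 (SE) with an adjusted p of 0.0001 in limma. AdCKO libraries with muscle mRNAs read 45.4 to 52.4 and the others 76.6 and 95.1. Without the former the change on the log2 scale was -0.70 (limma, adjusted p = 0.00057) for Itpr2 and -0.86 (adjusted p = 0.00028) for Itpr1, so both stayed called with smaller changes. With the skeletal muscle score as covariate the changes were -0.72 (limma, adjusted p = 0.00014) for Itpr2 and -0.86 (adjusted p = 5.9e-05) for Itpr1. That fit is no separate check, because the score was high only in the libraries with muscle mRNAs. The cause of the difference between the 2 kinds of AdCKO library was not tested.

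Itpr3, the receptor isoform of lowest affinity for IP3, was the rarest of the 9 mRNAs (NM_080553, chr17:27194249-27259168, plus strand). Control values were 14.2, 12.8, 16.4, 14.8 and 12.9, and AdCKO values 24.7, 17.6, 17.8, 20.2 and 17.3. The groups did not overlap, but the gap between them was small. The mean rose from 14.2 ± 1.49 to 19.5 ± 3.14, a log2 change of 0.42 ± 0.11 (SE) that limma gave an adjusted p of 0.0064. This call was lost with quantile normalization (0.07, adjusted p = 0.56), without the 3 libraries with muscle mRNAs (0.29, limma, adjusted p = 0.094), and when any of Control replicates 1, 2, 4 and 5 or AdCKO replicates 1 and 4 was left out (0.34 to 0.44, adjusted p from 0.0109 to 0.0178). AdCKO replicate 1, the highest, was also the library with the highest sum of lymphocyte markers. An antisense transcript, 1700062I23Rik, shares exon bases with Itpr3 in the annotation of this genome build, and whether counting used strand is not stated, so reads of the 2 genes may be mixed.

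The 3 receptors summed to 292 ± 26.6 in Control and 147 ± 31.2 in AdCKO, and the sums did not overlap (266 to 335 against 117 to 192). The ratio of Itpr2 to Itpr1 did not pass the test: its log2 value was 0.03 ± 0.13 in Control and -0.08 ± 0.25 in AdCKO, a difference of -0.10 (exact permutation test, p = 0.45) that was 0.16 without the 3 libraries with muscle mRNAs. The ratio of Itpr3 to Itpr1 rose in every AdCKO library, from 0.104 to 0.304 on the linear scale (exact permutation test, p = 0.0079, adjusted 0.0099). Itpr3 thereby went from 4.91% ± 0.61 to 13.8% ± 3.76 of IP3 receptor mRNA (adjusted p = 0.0238 by the exact permutation test), while Itpr1 was at 47.1% and 44.1% and Itpr2 at 48.0% and 42.1%, neither past the threshold. Calls of shares changed when single libraries were left out. Leaving out Control replicate 1, 3, 4 or 5 took the adjusted p of the Itpr3 and Atp2a2 shares to 0.0714 in the exact permutation test. Leaving out Control replicate 2 took that of the Itpr1 share to 0.0476 and leaving out AdCKO replicate 5 that of the Itpr2 share to 0.0317, and without AdCKO replicate 2 the Atp2a3 share had 0.0317, all by the exact permutation test. The Atp2a2 share was at most 76.6% in AdCKO and at least 87.7% in Control, and the Itpr3 share at least 9.02% and at most 5.58%. With groups of unequal size, other splits can give a larger difference, so the loss of these 2 calls does not show dependence on 1 library. The gain in the Itpr3 share was 8.92 points with all libraries and 4.99 points without the 3 libraries with muscle mRNAs. In the other 2 AdCKO libraries the Itpr1 share was 41.3% and 42.8%, below the Control range of 43.8% to 50.2%. Their Itpr2 share was 46.4% and 49.7%, inside the Control range of 45.6% to 51.6%. Pump mRNA rose against channel mRNA: Atp2a2 was 1.76 times the receptor sum in Control and 3.07 times in AdCKO (exact permutation test, p = 0.0079, adjusted 0.0099), with a log2 difference of 0.80 that was 0.50 without the 3 libraries.

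Other genes of ER release and leak moved in both directions, with 8 of the 17 tested genes that are not members called higher and 6 lower. The background was 25.6% higher and 28% lower, and the median log2 fold change of the 17 was 0.29. By the rule for naming genes, all 6 called lower are named below, but only Erlin1 of the 8 called higher. Ahcyl1, which encodes IRBIT, a protein that competes with IP3 for the receptor, fell from 1666 ± 85.9 to 599 ± 92.3 (log2 fold change -1.49; limma, adjusted p = 1.3e-07). Its relative Ahcyl2 fell by 0.68 and Ssfa2, whose product binds the receptor, by 1.16 on the log2 scale. Of the erlin pair, which with the ligase RNF170 degrades active IP3 receptors, Erlin1 rose from 34.2 ± 2.29 to 79.1 ± 6.09 while Erlin2 fell from 266 ± 17.2 to 147 ± 7.39, and Rnf170 fell from 37.7 ± 3.62 to 24.1 ± 2.38. Tmco1, which encodes a channel that opens when the ER is overfilled, fell by 0.52 on the log2 scale. Ryanodine receptors, the release channels of muscle, were near the bottom of the table: Ryr2 and Ryr3 were under the filter, and Ryr1 read 27.6, 88.6 and 24.1 in AdCKO replicates 1, 2 and 4 against 0.644 to 0.876 in the other 7 libraries. Without the 3 libraries with muscle mRNAs, 3 of the 15 genes of this list still tested were called higher, fewer than before, and 6 lower.

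IP3 itself is made by phospholipase C downstream of Gq-coupled receptors, and 9 of 16 tested genes of that list fell, 1 rose and 6 were not called, with a median log2 fold change of -0.39. Over all tested genes 28% fell and 25.6% rose. Adra1a, the alpha1A adrenergic receptor that couples noradrenaline to IP3, had the largest fall of the list, from 131 ± 21.2 to 27.7 ± 7.07 (-2.22, SE 0.16; limma, adjusted p = 1.8e-07). The gene of the other detected alpha1 receptor, Adra1d, fell from 65.9 ± 15.6 to 29.5 ± 2.96. Itpka, a kinase that consumes IP3, fell by 1.41 on the log2 scale. The G protein subunit Gna11 and the phospholipase Plcb4 fell by 0.77 and 0.81, while Gnaq, at 95.3 ± 7.56 and 93.5 ± 2.30, was not called. Plcg2, a phospholipase best known from blood cells, rose from 6.24 ± 0.99 to 16.7 ± 4.97 beside the rise of the macrophage markers. On the common total 5 genes of the list were called higher and 5 lower, where 60.6% and 9.77% of all tested genes were. Without the 3 libraries with muscle mRNAs, 6 of the 16 were called lower, 1 higher and 9 neither. Of all genes tested there, 19.7% were called lower and 18.8% higher.

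Stim1 encodes the ER calcium sensor that opens ORAI channels when the store is empty (NM_009287, chr7:109416338-109585369, plus strand). Control libraries read 347, 348, 307, 318 and 334 and AdCKO libraries 197, 228, 155, 206 and 171. All AdCKO libraries were below all Control libraries, and the libraries with muscle mRNAs were the 3 highest of AdCKO. The mean fell from 331 ± 17.9 to 192 ± 28.6, which is 57.9% of Control, or -0.80 ± 0.10 (SE) on the log2 scale (limma, adjusted p = 1.6e-05). Without the libraries with muscle mRNAs it was -1.01.

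Stim2, the second sensor, which answers to smaller losses from the store, went the other way. It read 33.3 to 45.1 in Control and 54.4 to 57.1 in AdCKO, a rise from 39.6 ± 4.20 to 56.3 ± 1.07 (log2 fold change 0.50; limma, adjusted p = 0.00012). Stim1 mRNA was 8.37 times that of Stim2 in Control and 3.37 times in AdCKO (log2 difference -1.31; exact permutation test, p = 0.0079, adjusted 0.0099). Of the channels, Orai3 fell from 248 ± 19.7 to 98.3 ± 6.30 (-1.33, SE 0.07; limma, adjusted p = 3.2e-08), with the smallest p of the store-operated entry list. Orai1 was not called (77.8 ± 3.97 and 87.5 ± 11.5), and Orai2 was under the filter. The 3 channels summed to 330 ± 22.4 and 194 ± 16.9, without overlap. Tmem110, whose product supports STIM1 at ER contacts with the plasma membrane, fell by 0.67 on the log2 scale. Saraf, which shuts the entry off, was not called. Of the 8 tested genes of this list other than Stim1, 2 were called higher, 2 lower and 4 neither, near the background of 25.6% higher and 28% lower. Beside Stim2 the one called higher was Sppl3, an intramembrane protease (88.3 ± 6.59 and 109 ± 11.1). On the common total 5 were called higher and 1 lower, also near the shares of all genes there (60.6% and 9.77%).

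Of 5 tested genes for export across the plasma membrane or into the Golgi, 3 rose and 1 fell, beside 25.6% and 28% of all tested genes. The plasma membrane pumps Atp2b4 and Atp2b1 rose from 26.2 ± 3.11 to 50.3 ± 3.44 and from 37.3 ± 5.50 to 53.0 ± 3.06 (log2 fold changes 0.92 and 0.51; limma, adjusted p = 2.4e-06 and 0.001). Atp2b1 was no longer called without the libraries with muscle mRNAs (0.46, limma, adjusted p = 0.029). The exchanger Slc24a3 fell from 698 ± 51.9 to 288 ± 51.6. Tmem165, a Golgi protein of calcium and manganese balance, rose by 0.74 on the log2 scale.

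**Figure D2:**
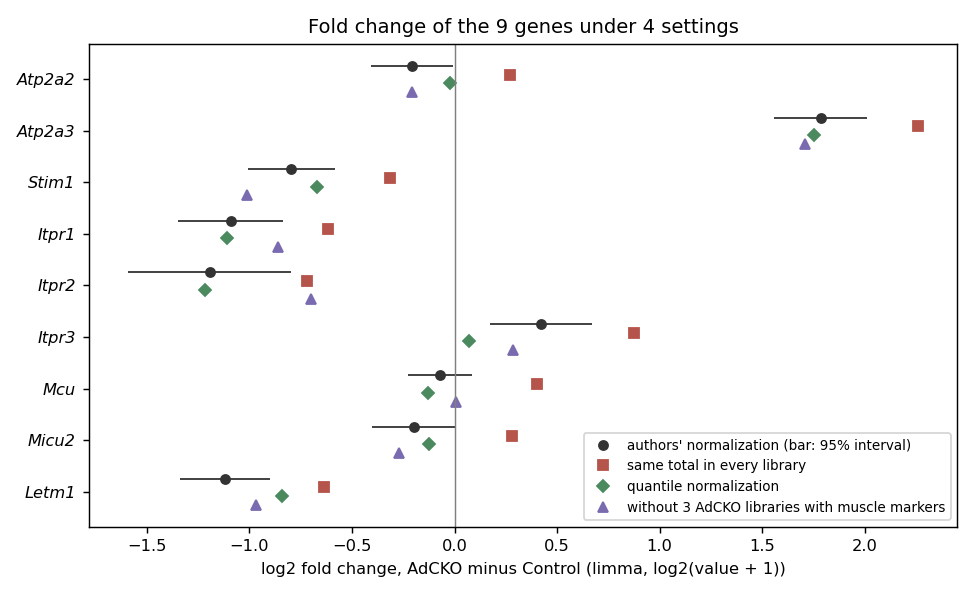
Log2 fold change, AdCKO minus Control, of the 9 genes (horizontal axis) with the authors' normalization and its 95% interval (black), with all libraries scaled to a common total (red), with quantile normalization (green) and without the 3 AdCKO libraries with muscle mRNAs (purple). Atp2a3 is at 1.71 or above and Stim1, Itpr1, Itpr2 and Letm1 stay below 0 in all 4, while Atp2a2, Mcu and Micu2 lie above 0 with the same total and Itpr3 is at 0.07 with quantile normalization.

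Mcu encodes the pore of the mitochondrial calcium uniporter (NM_001033259, chr10:58909732-59079440, minus strand). Its values were 66.8, 72.9, 68.4, 78.5 and 75.9 in Control and 62.3, 67.9, 71.3, 69.4 and 74.2 in AdCKO. The groups overlapped over most of their range. Means were 72.5 ± 4.93 and 69.0 ± 4.44, with a log2 fold change of -0.07 and a 95% interval from -0.22 to 0.08 (limma, adjusted p = 0.40). At this precision a fall beyond 0.22 on the log2 scale lies outside the interval, under the authors' normalization. On the common total the value was 0.40 (limma, adjusted p = 0.00018), which was called higher and lay close to the shift of all genes by 0.46.

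Micu2 encodes an EF-hand protein that keeps the pore shut at resting calcium (NM_028643, chr14:58535117-58618099, minus strand). It read 189, 182, 199, 170.5 and 182 in Control and 162, 149.6, 131, 188 and 177 in AdCKO. Replicates 4 and 5 of AdCKO lay within the Control range and the other 3 below it. Means were 184 ± 10.3 and 162 ± 22.5, with a log2 fold change of -0.20 (95% interval -0.40 to 0.01; limma, adjusted p = 0.080), not called. The ratio of Micu2 to Mcu was 1.35 ± 0.17 on the log2 scale in Control and 1.22 ± 0.22 in AdCKO (exact permutation test, p = 0.33). Its difference of -0.13 was -0.28 without the 3 libraries with muscle mRNAs and -0.04 without AdCKO replicate 3.

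With the authors' normalization, the rest of the complex moved more than its pore, though Micu2 was not called. On the common total it was Mcu (0.40) that moved more than Smdt1 (-0.21), Micu3 (-0.13) and Mcur1 (0.06). Over the 8 tested genes of the complex, Mcu and Micu2 included, 5 fell, 1 rose and 2 were not called with the authors' normalization. Beside these, 28% were lower and 25.6% higher over all tested genes. Without the 3 libraries with muscle mRNAs 3 were called lower and 1 higher. Smdt1, which encodes EMRE, the subunit that the pore needs to conduct, fell from 1616 ± 199.7 to 994 ± 71.7 (-0.69, limma, adjusted p = 4.6e-05). It was -0.31 with quantile normalization, and -0.21 and not called on the common total (limma, adjusted p = 0.043). Micu3, the isoform best known from neurons, fell by 0.60 on the log2 scale and was at -0.13 and not called on the common total. The assembly factor Mcur1 fell by 0.42 and was no longer called without the libraries with muscle mRNAs (-0.33, limma, adjusted p = 0.0106). Slc25a23, an ATP carrier described as a partner of the pore, fell from 781 ± 80.0 to 246 ± 56.5. Against these, Ccdc109b, now called Mcub, which encodes the inhibitory paralog of the pore, rose from 9.15 ± 1.17 to 23.3 ± 5.71 (1.23, SE 0.16; limma, adjusted p = 2.5e-05).

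Ratios to Mcu within a library, which do not depend on a scaling factor, moved for Mcub, Smdt1 and Letm1. Mcub went from 0.126 to 0.330 of Mcu, with a log2 difference of 1.39. In AdCKO the 3 libraries with muscle mRNAs held 24.9 to 29.8 normalized reads per kb of Mcub and the other libraries 16.97 and 17.8, and without the former the log2 difference of the ratio was 0.93. Smdt1 went from 22.2 to 14.4 times Mcu (-0.62, and -0.18 with quantile normalization). Both had p = 0.0079 in the exact permutation test, adjusted to 0.0099. On the common total, 2 genes of the whole complex were called higher and 1 lower, where 60.6% and 9.77% of all genes were. Mcur1 then changed sign (0.06, not called).

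**Figure D3:**
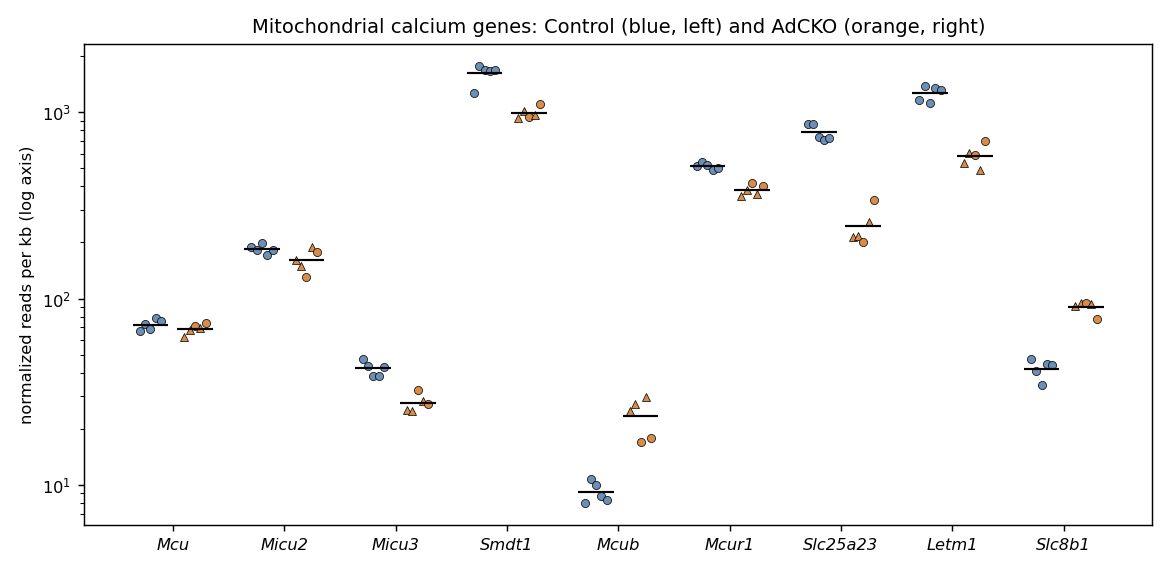
Normalized reads per kb (vertical log axis) of 9 genes of mitochondrial calcium handling in Control (blue, left of each pair) and AdCKO (orange, right) libraries, with bars at the group means; triangles are libraries with skeletal muscle mRNAs. Mcu and Micu2 overlap between groups, Mcub and Slc8b1 are higher and the other 5 lower in every AdCKO library.

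Letm1 encodes an inner membrane protein needed for the exchange of cations with protons, described for both potassium and calcium (NM_019694, chr5:34084001-34125353, minus strand). It was the most abundant of the 9 mRNAs, at the 97.4 percentile of all levels in Control. Its values were 1160.5, 1387, 1121, 1353 and 1313 in Control and 534, 604, 592, 491 and 703 in AdCKO. Even the highest AdCKO library stayed far below the lowest Control library. The mean fell from 1267 ± 119 to 585 ± 80.2, which is 46.2% of Control, or -1.12 ± 0.10 (SE) on the log2 scale (limma, adjusted p = 1.3e-06). Letm1 was 17.4 times Mcu in Control and 8.43 times in AdCKO (log2 difference -1.05; exact permutation test, p = 0.0079, adjusted 0.0099).

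Among the other genes of mitochondrial calcium exchange, 7 of 12 fell and 2 rose, where 28% of all tested genes fell and 25.6% rose. Counts were 3 lower and 4 higher on the common total, where 9.77% and 60.6% of all tested genes were. They were 5 lower and 1 higher without the libraries with muscle mRNAs, where the shares of all genes were 19.7% and 18.8%. Slc8b1, which encodes the sodium-calcium exchanger NCLX that lets calcium out of the matrix, rose from 42.1 ± 4.87 to 90.7 ± 7.17 (1.09, SE 0.09; limma, adjusted p = 7.5e-07). The m-AAA protease genes Spg7 and Afg3l2, whose product removes unassembled EMRE, fell by 1.13 and 0.88 on the log2 scale. Letmd1, a LETM1 domain protein abundant in brown fat, fell from 3587 ± 297 to 1356 ± 369, and read 938 to 1194 in the libraries with muscle mRNAs and 1665 to 1815 in the others. Outer membrane channels differed, with Vdac3 higher (0.31) and Vdac1 and Vdac2 not called.

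**Figure D4:**
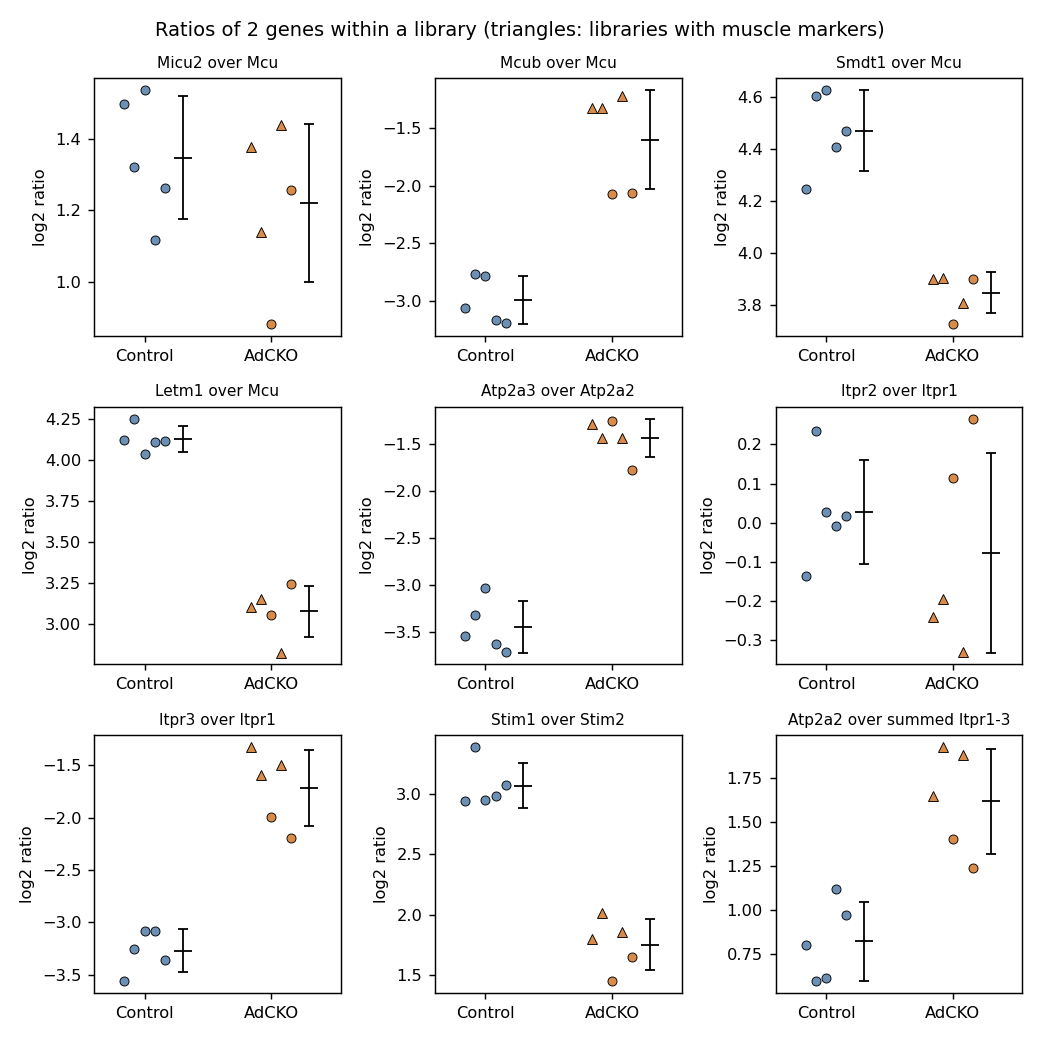
Log2 ratios of 2 genes within a library (vertical axes, which do not start at 0) for 9 pairs in Control (blue) and AdCKO (orange), with mean and SD beside the points; triangles are libraries with muscle mRNAs. The groups overlap for Micu2 over Mcu and Itpr2 over Itpr1 and are separate for the other 7 pairs.

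Where ER and mitochondria meet, 4 of 13 tested genes fell, 2 rose and 7 were not called, near the background of 28% lower and 25.6% higher. On the common total 9 were called higher and 1 lower, where 60.6% and 9.77% of all tested genes were. Mfn2, which encodes mitofusin 2, fell from 986 ± 37.1 to 633 ± 30.1, and Rmdn3, which encodes the tether PTPIP51, from 983 ± 56.8 to 627 ± 80.4. Vapa rose by 0.47 on the log2 scale while Vapb, the usual partner of PTPIP51, fell by 0.29. Tmx2, a thioredoxin-related protein, fell from 317 ± 25.7 to 192 ± 12.5, and the ER tether Pdzd8 rose from 39.2 ± 1.65 to 46.2 ± 2.46. Of the 12 tested genes listed for calcium-sensitive mitochondrial enzymes and carriers, with their subunits and regulators, 8 fell and 4 rose. The pyruvate dehydrogenase subunit Pdha1 fell from 9789 ± 678 to 3194 ± 524, and Gpd2, the glycerol-3-phosphate dehydrogenase that senses cytosolic calcium, from 2475 ± 276 to 683 ± 145. Pdpr, which encodes the regulatory subunit of pyruvate dehydrogenase phosphatase, fell from 93.0 ± 6.33 to 28.6 ± 4.67. The 4 that rose were the phosphatase Pdp1 and the carriers Slc25a12, Slc25a24 and Slc25a25, and of these Slc25a12 was at 49.5 to 82.3 in the libraries with muscle mRNAs and at 27.0 and 27.9 in the others. Over the 11 lists together, 41 of 128 tested genes other than the 9 rose and 46 fell, with a median log2 fold change of -0.02, against -0.01 over all tested genes, of which 25.6% rose and 28% fell. On the common total 75 of the 128 genes were called higher and 22 lower, where 60.6% and 9.77% of all tested genes were.

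**Figure D5:**
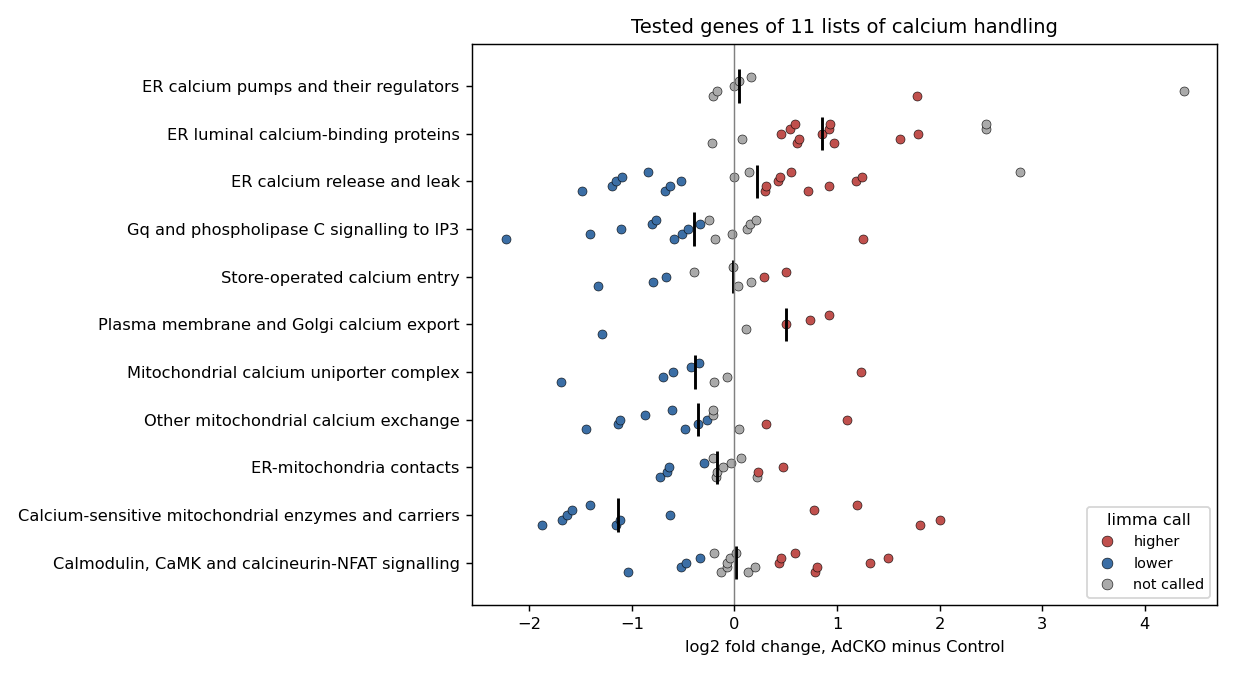
Log2 fold change, AdCKO minus Control (horizontal axis), of each tested gene in 11 lists of calcium handling, coloured by limma call, with a black bar at the median of each list. ER luminal calcium-binding proteins have their median at 0.85 and none called lower, and the calcium-sensitive mitochondrial enzymes have theirs at -1.13.

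The genes whose pattern over the 10 libraries was most like each of the 9 were found by the root mean square difference of log2(value + 1), each gene taken relative to its Control mean. For Letm1 they were Prkaca, Poldip2 and Ndufs8 (0.07 each on the log2 scale), and for Stim1 Pithd1, Phkb and Ccbl1, from 0.07 to 0.09. For Itpr1 they were Trmt2b, Slc36a2 and Herc3 (0.07 to 0.11), and Itpr2 was 115th among all tested genes. For Itpr2 they were Impdh1, Dlst and Col27a1 (0.15 to 0.16), and Itpr1 was 14th. Atp2a3 had Atp8b4, Srgap1 and Cmip (0.13 to 0.14), and Itpr3 had Arhgef3, Peli1 and Rnf114 (0.07 to 0.08). Nearest to Mcu were Pds5b, Pole4 and Kdm5c (0.05 to 0.06), to Micu2 Kif13b, Fryl and Htt (0.07 to 0.08), and to Atp2a2 Zbtb44, Uspl1 and Cdk7 (0.07 to 0.08).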

How the data were processed

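RNA carrying poly(A) tails from iBAT of 5 Control and 5 AdCKO mice was sequenced on an Illumina platform. STAR was used by the authors to map reads to mm9, HOMER for tag directories, iRNA-seq for counting reads over exons, and DESeq2 for normalization. What they deposited is a normalized read signal per kb of exon for 15075 genes, so the deposited signal does not hold counts. The authors' own log2 fold changes and adjusted p-values, and their lists of called genes, were not used. Labels gave each library its group and replicate number.

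A gene entered the test if either group averaged at least 10 on this scale. The model was limma 3.58.1 (R 4.3.3) on log2(value + 1), a scale on which changes of low genes come out too small. It used lmFit, then eBayes with a trend on intensity, with two-sided p-values adjusted after Benjamini-Hochberg for 11244 genes and called under 0.01. DESeq2, which the study ran on counts, could not be run on these values. The test was checked on simulated data. Ratios and shares were taken from the deposited values per kb without a pseudocount and compared with exact two-sided permutation tests, adjusted over 10 ratios or 6 shares, at a threshold of 0.05. Intervals are 95% intervals from limma. Read depth per library is unknown. No counting error can thus be given, and the precision is the spread between mice. The labels do not say whether replicate numbers pair the mice, and the libraries were treated as unpaired. The deviations of same-numbered libraries from their group means correlated between -0.27 and 0.098 in 5 pairs, which cannot exclude a pairing.

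The 9 genes and the lists were chosen with earlier results of these data known. Named are the 9 genes, defining partners, from each list the 4 tested genes with the smallest adjusted p and called genes against the direction of most of the list, and the 3 genes most like each of the 9. Other genes named from the lists were chosen after their values were seen. Sequences upstream of transcript starts came from the mm9 assembly. RefSeq's promoter table (GRCm38.p6) held the same 250 bases for 5 of the 9 genes and no entry for Atp2a2 and Itpr1. Overlapping genes came from GENCODE for the same build. Alternatives covered pseudocounts of 0.1 and 10, testing without a filter or with a mean of 1, the same total in every library, quantile normalization, no trend, a robust fit, array quality weights, a replicate block, a skeletal muscle score as covariate, an adjusted p under 0.05 and each library left out in turn. The fit without the 3 AdCKO libraries with skeletal muscle markers was added after seeing the data. Plots used matplotlib 3.10.9 (Python 3.11.15). Results of some genes, among them 1 of the 10 ratios, are not reported here.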

Additional observations from a re-analysis of the deposited data

Results flagged for a closer look

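Among 180 groups of 5 libraries examined for the 9 genes, the named genes and their ratios, 8 held a library whose gap to its nearest neighbour was large against the range of the group (Dixon's ratio above 0.71). Chance alone flags about 1 in 20 such groups. None of them was a level of the 9 genes themselves. Atp2a1 read 8.51 in Control replicate 3, against 5.99 to 6.27 in the other Control libraries. The same library was low for Slc25a12, at 11.1 against 12.2 to 12.4, and for Rcan3, at 25.8 against 30.5 to 31.4. In Control replicate 2, Atp2b1 read 27.7 against 38.3 to 41.5, and the log2 ratio of Stim1 to Stim2 was 3.39 against 2.94 to 3.07. Smdt1 was at 1267 in Control replicate 1 and at 1666 to 1775 in the other Control libraries. AdCKO replicate 5 was lowest for Stim2, at 54.4 against 56.5 to 57.1, and for Slc8b1, at 78.1 against 91.6 to 95.1.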

How the results depend on the processing

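Calls of Atp2a3, Itpr1, Itpr2, Stim1 and Letm1 kept direction and significance under every alternative run, including each library left out. Itpr3 did not: it was 0.070 with quantile normalization, 0.33 with the muscle score as covariate and 0.29 without the 3 AdCKO libraries with muscle mRNAs, none called, so that 1 member was called higher in each, and 0.34 to 0.47 with 1 library left out (1 to 2 called higher). The cause was not tested. With the same total in every library Atp2a2 (0.27), Mcu (0.40) and Micu2 (0.28) changed sign, as did Mcur1 (0.059). There 75 genes of the lists were called higher and 22 lower, beside 60.6% and 9.77% of all tested genes. Without the 3 libraries, Mcu was at 0.0069 and Orai1 at -0.034, and with the covariate Orai1 was at -0.025 and Atp2a1 at -0.065. Quantile normalization turned Micu2 over Mcu to 0.0055. Without the 3 libraries, log2 differences of ratios were 0.93 for Ccdc109b over Mcu, 0.16 for Itpr2 over Itpr1, 1.18 for Itpr3 over Itpr1 and 0.50 for Atp2a2 over the receptor sum. Differences of shares in percentage points were then -0.28 (Atp2a1), -17.2 (Atp2a2), 17.5 (Atp2a3), 0.046 (Itpr2) and 4.99 (Itpr3). The Itpr1 share was 41.3% and 42.8% in the AdCKO libraries that remained, against a Control mean of 47.1%. With 1 library left out, shares differed by -55.0 to -38.9 (Atp2a2), 4.22 to 10.4 (Atp2a3), -3.81 to -2.23 (Itpr1), -7.82 to -4.65 (Itpr2) and 7.93 to 10.1 (Itpr3). For the tested defining partners of the 9, 9 further values gained and 5 lost their call. Calls of the other single genes named from the lists were not followed through these alternatives.

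With the replicate number as a block, the Itpr3 fold change stayed at 0.42 (limma, adjusted p = 0.0122) and 1 member was called higher in place of 2, while no other call among the 9 changed. The labels do not say whether the numbers pair the mice, and an exact permutation by sign flips within a number cannot go below p = 0.0625 for the ratios.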

Other observations

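Downstream of cytosolic calcium, 7 of 19 tested genes of calmodulin, its kinases and the calcineurin route rose, 4 fell and 8 were not called, with a median log2 fold change of 0.01. Of all tested genes 25.6% rose and 28% fell. On a common total for every library 15 genes of this list were called higher and none lower, where 60.6% and 9.77% of all tested genes were. Without the 3 AdCKO libraries with muscle mRNAs 4 of 18 were called higher and 2 lower, where 18.8% and 19.7% of all tested genes were. Of the calmodulin genes, Calm2 rose from 479 ± 18.9 to 724 ± 44.0 (SD, n = 5; limma, adjusted p = 4.9e-06), while Calm3 (404 ± 29.7 and 384 ± 28.9) was not called. Kinase genes split, with Camk1 at 144 ± 14.6 and 251.6 ± 37.2 and called higher, and Camk2b at 43.7 ± 6.11 and 21.6 ± 7.37 and called lower. Camk2a was also called higher, but read 9.82 to 28.5 in the AdCKO libraries with muscle mRNAs and 3.80 and 4.52 in the other AdCKO libraries, against a Control mean of 2.55 ± 0.55. The calcineurin subunit Ppp3ca rose by 0.43 and Ppp3cc fell by 0.47 on the log2 scale. The kinase gene Camkk2 and the calcineurin regulator Rcan3 fell by 0.52 and 0.33, and Nfatc4, a transcription factor that calcineurin activates, rose from 13.2 ± 2.14 to 23.7 ± 2.79. Rcan1, a calcineurin inhibitor whose own gene answers to calcineurin, was at 149 ± 16.2 and 150.3 ± 9.12.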
